A study of Homo sapiens with 18 samples.

Results

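The genes described here store, import, export and sense iron in FTC-133 cells, a human cell line from a follicular thyroid carcinoma, which were grown untreated. Their members were named as ferritin heavy chain FTH1, ferritin light chain FTL, the ferritin heavy chain pseudogene FTH1P5, TFRC, SLC40A1, SLC11A2, IREB2, ACO1 and HMOX1, and every probe set whose platform annotation listed one of these symbols was taken. That gave 18 of 54675 probe sets, from 7 of the 9 genes: 5 each for TFRC and SLC11A2, 2 each for FTL, SLC40A1 and ACO1, and 1 each for FTH1P5 and HMOX1. FTH1 and IREB2 matched no probe set by symbol and were not analysed here. The annotation used listed no symbol for 11777 probe sets, so any probe set of either gene among those was missed. The genes were chosen by their symbols after their signals on these 18 scans had been seen, so the values below describe them and test nothing about them.

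The study asked how stringent washing changes array signals. Aliquots of 1 hybridization mix from 1 RNA sample were put on 3 arrays, A, B and C, which differed in the washing before the first staining: 0 cycles on A, 2 on B and 6 on C. In the second series all 3 arrays had been stained again (re-labelling). Arrays A and B were then scanned after 0, 2, 7 and 17 additional cycles and array C without additional cycles, which made 9 scans. The first series held the matching 9 scans after the first staining. All groups thus shared the same cells, the same RNA and the same staining protocol. They differed in the washing and in the number of stainings and of earlier scans, and arrays A, B and C were separate hybridizations. Cycles in total had reached 17 on A, 21 on B and 12 on C when the second series began. Scans of 1 array are repeat measurements of 1 hybridization. All differences therefore concern the measurement, and their spread is technical.

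Iron inside a cell is held in ferritin, a hollow shell of heavy chains, which oxidise iron, and light chains, which help to mineralise it. The transferrin receptor TFRC brings in iron bound to transferrin, SLC11A2 carries iron out of the endosome into the cytosol, and SLC40A1 (ferroportin) exports it from the cell. ACO1 and IREB2 encode iron regulatory proteins that bind a hairpin, the iron-responsive element, in the leading untranslated region of the ferritin and ferroportin mRNAs and in the trailing one of TFRC mRNA, and so hold back ferritin synthesis and stabilise TFRC mRNA when iron is scarce. HMOX1 encodes the inducible heme oxygenase, which frees iron from heme.

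The window of FTL, the light chain gene whose probe sets were among the brightest of the series, shows where this regulation reads its target. The bases below were read from RefSeq (GRCh38.p14, chr19:48965333-48965358, plus strand, the end of the first 50 bases of the transcript), and the capitals mark the loop of the iron-responsive element.

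FTL: gtctcttgcttcaaCAGTGTttggac

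The loop letters, searched as CAGTGN on the transcript strand of the 50 bases after each start, began at base 39 of FTL. They occurred in 6.365% of 35116 windows of that length, and in 12.0% when either strand was counted. They were not in the same stretch of the windows of ACO1, IREB2, SLC11A2, SLC40A1 and TFRC. The search ended at base 50, so elements further into a leading region or in a trailing one lay outside it. FTH1, FTH1P5 and HMOX1 had no window in the table used. The letters are a description of the sequence, and a probe set does not measure binding to them.

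Every value is a MAS5 signal, Affymetrix's summary of the probes of a probe set on a linear scale. Each scan had been rescaled as a whole, and its mean signal without the lowest and highest 2% was close to 250 on all 18 scans (249.939 to 249.977), so a signal says how bright a probe set was relative to the rest of its own scan. The median signal of a scan lay between 51.0 (C1) and 136 (A1). A change is therefore also given as a log2 value relative to the median change, taken over all 54675 probe sets. No 2 of the 18 scans held identical values. Of the thyroid markers PAX8 read 757, NKX2-1 766, HHEX 176 and SLC5A5 87.7 on C1, whereas TG, TSHR and FOXE1 (38.9 to 40.7) read below the median of that scan. Markers of other cells that handle much iron stayed low on C1, with at most 107 for 9 measured erythroid genes, 71.2 for 7 macrophage genes and 87.3 for 6 hepatocyte genes.

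The FTL probe sets were bright on every scan and, as scaled, brighter on each later scan of the first series. On array A, 212788_x_at had signals of 6782, 11113, 15064 and 18981 after 0, 2, 7 and 17 additional cycles of the first series, and on array B 12938, 19750.4, 26084 and 33202. In the second series the same steps gave 11426, 14066, 16244 and 16848 on array A and 14796, 16409, 23612 and 22984 on B. The second series was thus the narrower, with a highest signal 2.07 times the lowest against 4.9 times in the first, and it ended below the first on both arrays although it had begun above it. Array C had 12804 in the second series and 17635 in the first.

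The second FTL probe set, 213187_x_at, followed the same course at lower signals. In the second series it lay between 8465 and 15907, against 4716 to 24156 in the first. The log2 signals of both FTL probe sets had a Pearson r of 0.97 over the 9 scans of the second series and of 0.996 over the 9 scans of the first. These scans share 1 RNA and 3 arrays, so r describes how alike the probe sets read and carries no test.

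FTH1P5, represented by 211628_x_at, was the brightest of the 18 listed probe sets on C1, at rank 87 of all. Its sequence is a processed copy of the heavy chain mRNA, and the ending _x_at marks a probe set with probes that can match other transcripts, so signal from FTH1 mRNA and from its copies cannot be told apart here. The FTL probe sets carry the same ending. In the first series FTH1P5 read 11385, 16944, 22762 and 28133 on array A and 16223, 24929.5, 32886 and 40329 on B.

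After the second staining FTH1P5 stepped unevenly from scan to scan. It had signals of 3119, 14999.9, 4378 and 19328 on array A and 1499, 3639, 19557 and 20983 on B. The signal was lower at 1 of the 6 steps, between 2 and 7 cycles on array A, and higher at each step on array B. On array C it read 13564 in the second series and 20583 in the first. The highest signal was 14.0 times the lowest in the second series and 3.54 times in the first. Every second-series signal lay below that of the same array and step in the first series (9 of 9 pairs), a count not made for all probe sets. The ratio to that partner scan was lowest on B before additional washing, at 0.0924. No FTL scan showed such a drop: at that step both FTL probe sets were brighter in the second series.

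**Figure D1:**
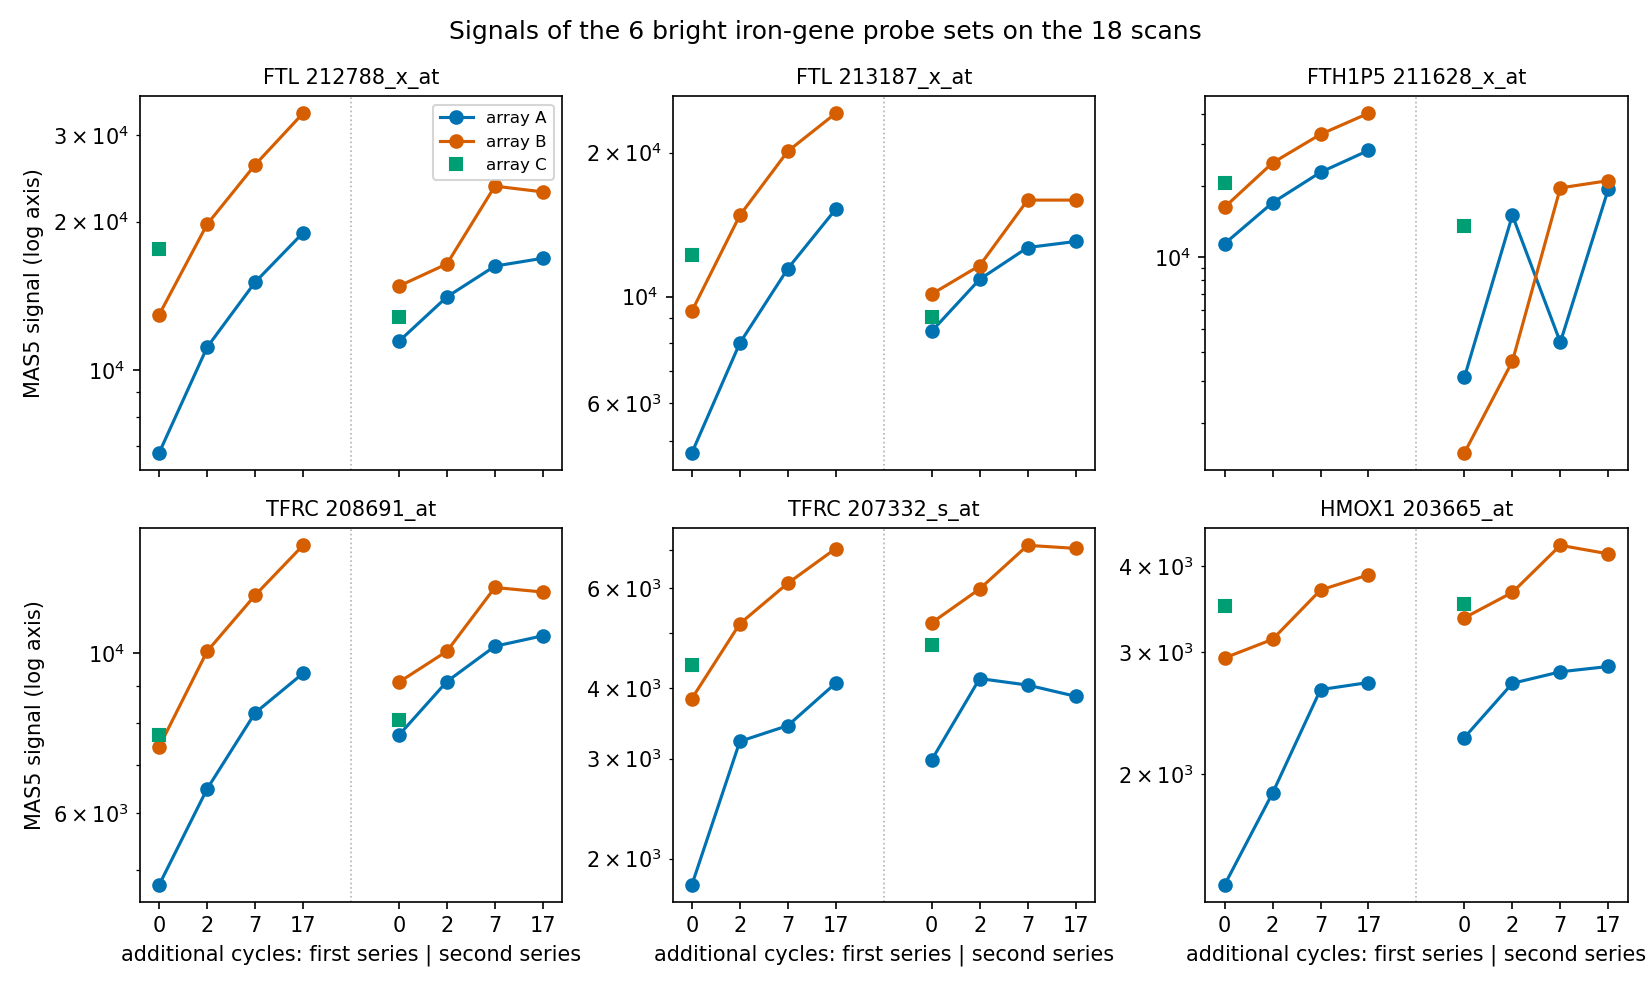
MAS5 signal (log axis) of the 6 bright probe sets against additional washing cycles, first series left and second series right of the dotted line, with circles for arrays A and B and squares for array C. The largest step of each FTL, TFRC and HMOX1 probe set shown was smaller in the second series than in the first, though single steps were not always. FTH1P5 fluctuated between 1499 and 20983 in the second series.

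The size of this fluctuation was compared with that of other bright probe sets. For each probe set the largest step between neighbouring scans of 1 array was taken, after subtraction of the scan medians. It was 2.62 log2 units for FTH1P5 in the second series and 0.93 in the first. The FTL probe sets had 0.72 and 0.65 in the second series and 1.07 and 1.12 in the first. Among the 100 probe sets brightest on C1, the median was 0.70 in the second series and 0.96 in the first. Of these 100, 7 had a step over 2 in the second series, FTH1P5 included, and 0 had one in the first. Apart from FTH1P5, S100A6 (2.84), which encodes a calcium-binding protein, was the only one of the 7 with exactly 1 gene symbol. It was picked out after its values were seen. Over all probe sets, most of them dim, 16.3% had a step over 2 in the second series and 30.6% in the first. The paper reports that the scanner saturated for a small share of probes, in the second series only. Whether probes of FTH1P5 were among them cannot be read from these signals. What moved FTH1P5 between scans was not tested.

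**Figure D2:**
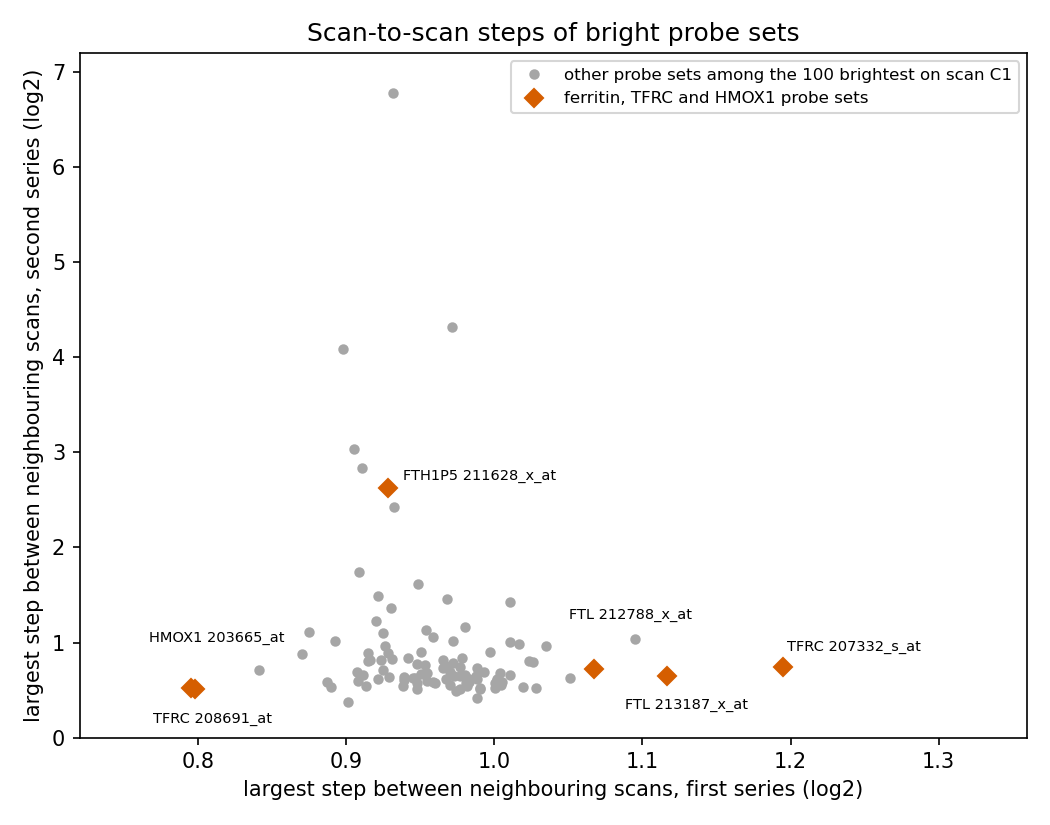
Largest step between neighbouring scans (log2, after subtraction of scan medians) in the second series against the first, for the 100 probe sets brightest on C1 (grey; FTH1P5 is one of them) and for the 6 bright FTL, FTH1P5, TFRC and HMOX1 probe sets (orange). FTH1P5 lies at 2.62 in the second series, with 6 further probe sets above 2, while the other 5 probe sets in orange lie below 1.

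TFRC, the main importer, was read by 2 bright and 3 dim probe sets. In the first series 208691_at had signals of 4764, 6476, 8258 and 9374 on array A and 7411, 10059.5, 12032 and 14119 on B. In the second series it had 7693, 9132, 10222 and 10571 on array A and 9113, 10061, 12337 and 12159 on B. Array C read 8062 in the second series and 7690.0 in the first. As for FTL, the second series began higher than the first and spanned less, 1.6 times against 2.96 times between the lowest and the highest scan.

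The other bright TFRC probe set, 207332_s_at, ran from 2985 to 7133 in the second series and from 1797 to 7041 in the first. Its r with 208691_at was 0.72 in the second series and 0.96 in the first. The remaining TFRC probe sets were dim. Signals of 237215_s_at lay between 9.36 and 138 over the 18 scans, those of 240686_x_at between 8.89 and 168, and those of 237214_at between 4.31 and 89.0. Their r with 208691_at over all scans was -0.41, 0.25 and -0.07. By series it was -0.08 and -0.64 (second and first) for 237215_s_at, 0.75 and 0.05 for 240686_x_at and -0.06 and -0.06 for 237214_at, so 240686_x_at resembled 208691_at in the second series and not in the first.

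HMOX1, the heme-degrading enzyme, was read by 203665_at alone. Its first-series signals were 1384, 1878, 2649.5 and 2713 on array A and 2944, 3132, 3689.9 and 3881 on B. The second series gave 2259, 2705, 2811 and 2861 on array A and 3364, 3661, 4281 and 4162 on B. Array C had 3518 in the second series and 3502 in the first. Signals on array B exceeded those on array A at every matching step. The ranges of both arrays did not overlap over their 8 scans each (2944 to 4281 on B, 1384 to 2861 on A). Higher signals on B at every matching step were not particular to HMOX1. Both FTL and both bright TFRC probe sets had them too, with overlapping ranges. The share of all probe sets without overlap between the arrays was not counted.

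SLC11A2, the endosomal iron transporter, was of medium brightness on 2 of its 5 probe sets. Signals of 203124_s_at were between 445 and 596 in the second series (median 501) and between 351 and 508 in the first (median 405). Those of 203123_s_at were between 129.9 and 227 in the second series (median 164) and between 204 and 318 in the first (median 243). The probe sets of this gene thus stood in opposite order between the series. In 9 of 9 pairs 203124_s_at was higher in the second series relative to the median, by 0.05 to 0.50. In 8 of 9 pairs 203123_s_at was lower, down to -0.78. Such counts were not made for all probe sets. Within a series these 2 probe sets varied together (r 0.79 in the second, 0.55 in the first), and over all 18 scans r was -0.17.

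The dim SLC11A2 probe set 203125_x_at split by array. Relative to the median, it was lower in the second series in all 4 pairs of array A (-1.64 to -0.70) and on array C (-1.17), and higher in all 4 pairs of array B (0.76 to 2.32). Its signals on array B were 128, 101, 171 and 176 in the second series and 30.0, 46.0, 105 and 34.8 in the first. The TFRC probe set 237214_at showed the reverse split, with 4 of 4 pairs higher on A (0.05 to 2.57), 4 of 4 lower on B (-2.01 to -0.92) and C lower (-0.67). The scans of 1 array are not independent, so such a split amounts to 1 observation per array.

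SLC40A1, the iron exporter, was dim on both probe sets. In the first series 223044_at had 320.1, 119.8, 90.7 and 64.5 on array A and 68.8, 41.5, 13.7 and 8.93 on B, lower at each of the 6 steps. The scans before additional washing, after 0, 2 and 6 initial cycles, had the same order, with 320.1 on A, 68.8 on B and 10.7 on C. In the second series the signals were 168, 104, 76.7 and 110.5 on array A, 66.8, 60.6, 54.0 and 81.5 on array B, and 41.1 on array C. The second series was thus lower at the steps to 2 and 7 cycles on both arrays and higher at the step to 17 cycles (4 of 6 steps lower), and its last scan was the brightest on array B. The other probe set, 233123_at, lay between 49.1 and 175 in the second series and between 36.7 and 169.7 in the first, with no common order of the steps.

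ACO1, which serves as cytosolic aconitase when iron is ample and as an iron regulatory protein when it is scarce, was read by the steadiest and the most variable of the 18 probe sets. Signals of 207071_s_at were between 485 and 595 in the second series and between 460.1 and 676 in the first, and the highest of all 18 scans was 1.47 times the lowest. Its other probe set, 237622_at, ran from 2.79 to 171 and was lower on array B (2.79 to 47.2) than on array A (21.7 to 171), with overlapping ranges.

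**Figure D3:**
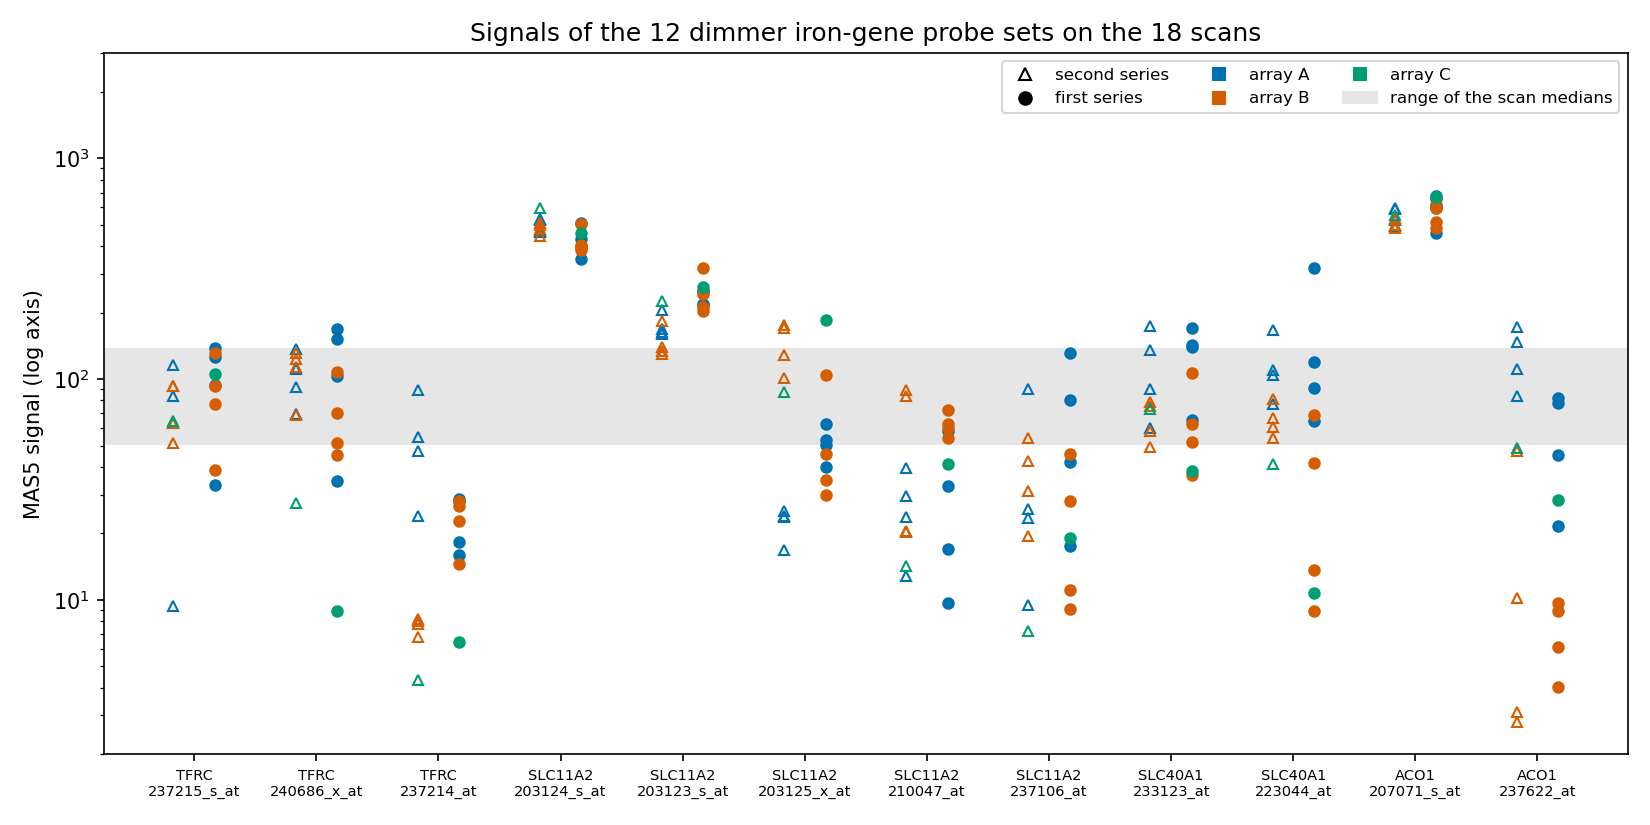
MAS5 signal (log axis) of the 12 dimmer probe sets on the 18 scans, second series (triangles) left of first series (circles) for each, coloured by array, with the range of the scan medians (51.0 to 136) in grey. ACO1 207071_s_at and SLC11A2 203124_s_at stayed within narrow ranges, whereas ACO1 237622_at ran from 2.79 to 171.

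Washing was compared as 17 against 0 additional cycles within each series, by limma with the array as a block. The arrays were not exact replicates: first-series cycles in total ran from 0 to 17 on A and from 2 to 19 on B. The median change of all probe sets there was -0.61 on A and -0.27 on B. Standard errors and p-values rest on repeat scans of these 2 hybridizations. In the first series no probe set of 54675 passed an adjusted p of 0.05 (0% called), so 0 of the 18 called says nothing particular about these genes. At an unadjusted p under 0.05, 1914 probe sets were higher and 7573 lower, among them 5 and 3 of the 18. In the second series 0 of 54675 passed (0% called), 1395 were higher and 6358 lower at the unadjusted threshold, and 4 and 0 of the 18 were among them. The difference between the series was called for 0 probe sets (0% called), with 2686 higher and 1408 lower at the unadjusted threshold, 1 and 2 of the 18 among them. The calls depended on how limma moderated the spread: with its trended and robust setting, 4 of the 18 and 1546 of all probe sets were called in the second series, and 6 and 2615 in the first.

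As a description, the ferritin probe sets had the highest relative values of the 18 in the first series, and FTH1P5 the highest in the second. The median of all fitted changes was -0.24 in the second series and -0.45 in the first. Relative to it, FTL 212788_x_at had 0.84 ± 0.19 in the second series and 1.87 ± 0.26 in the first, and 213187_x_at 0.88 ± 0.18 and 1.98 ± 0.27 (log2, SE, 2 arrays). FTH1P5 had 3.46 ± 1.05 in the second series and 1.76 ± 0.26 in the first. TFRC 208691_at had 0.68 ± 0.17 and 1.40 ± 0.26, and HMOX1 0.57 ± 0.17 and 1.13 ± 0.30. The first-series value of HMOX1 was 0.73 without scan A1 and 1.57 without B1. SLC40A1 223044_at had 0.09 ± 0.29 in the second series and -2.18 ± 0.43 in the first. Over the 18 probe sets the median was 0.32 in the second series and 0.48 in the first, where that of all probe sets is 0 by definition.

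These values depended on what the scans were scaled to. Relative to the same median, the 100 probe sets brightest on C1 had a median of 0.89 on array A and 0.96 on array B in the second series, and of 1.98 and 1.60 in the first. Anchoring every scan on those 100 shifted all probe sets of a scan alike: the median of all became -1.13 in the second series and -1.80 in the first, and values relative to that median did not move. On the anchored scale FTL 212788_x_at was at -0.29 in the second series and 0.06 in the first, TFRC 208691_at at -0.45 and -0.40, HMOX1 at -0.56 and -0.67 and FTH1P5 at 2.33 and -0.05. Quantile normalization, which does not shift all alike, turned the relative values of FTL 212788_x_at in the second series (-0.014), of FTH1P5 in the first (-0.056) and of TFRC 208691_at in both (-0.16 and -0.20). SLC40A1 223044_at was negative in the first series as scaled (-2.63), anchored (-3.99) and after quantile normalization (-2.26). Its size rested on low signals: 8.93 on B4, where 17.1% of probe sets read lower. With an offset of 16 the value relative to the median was -1.58, against -2.18 without one.

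**Figure D4:**
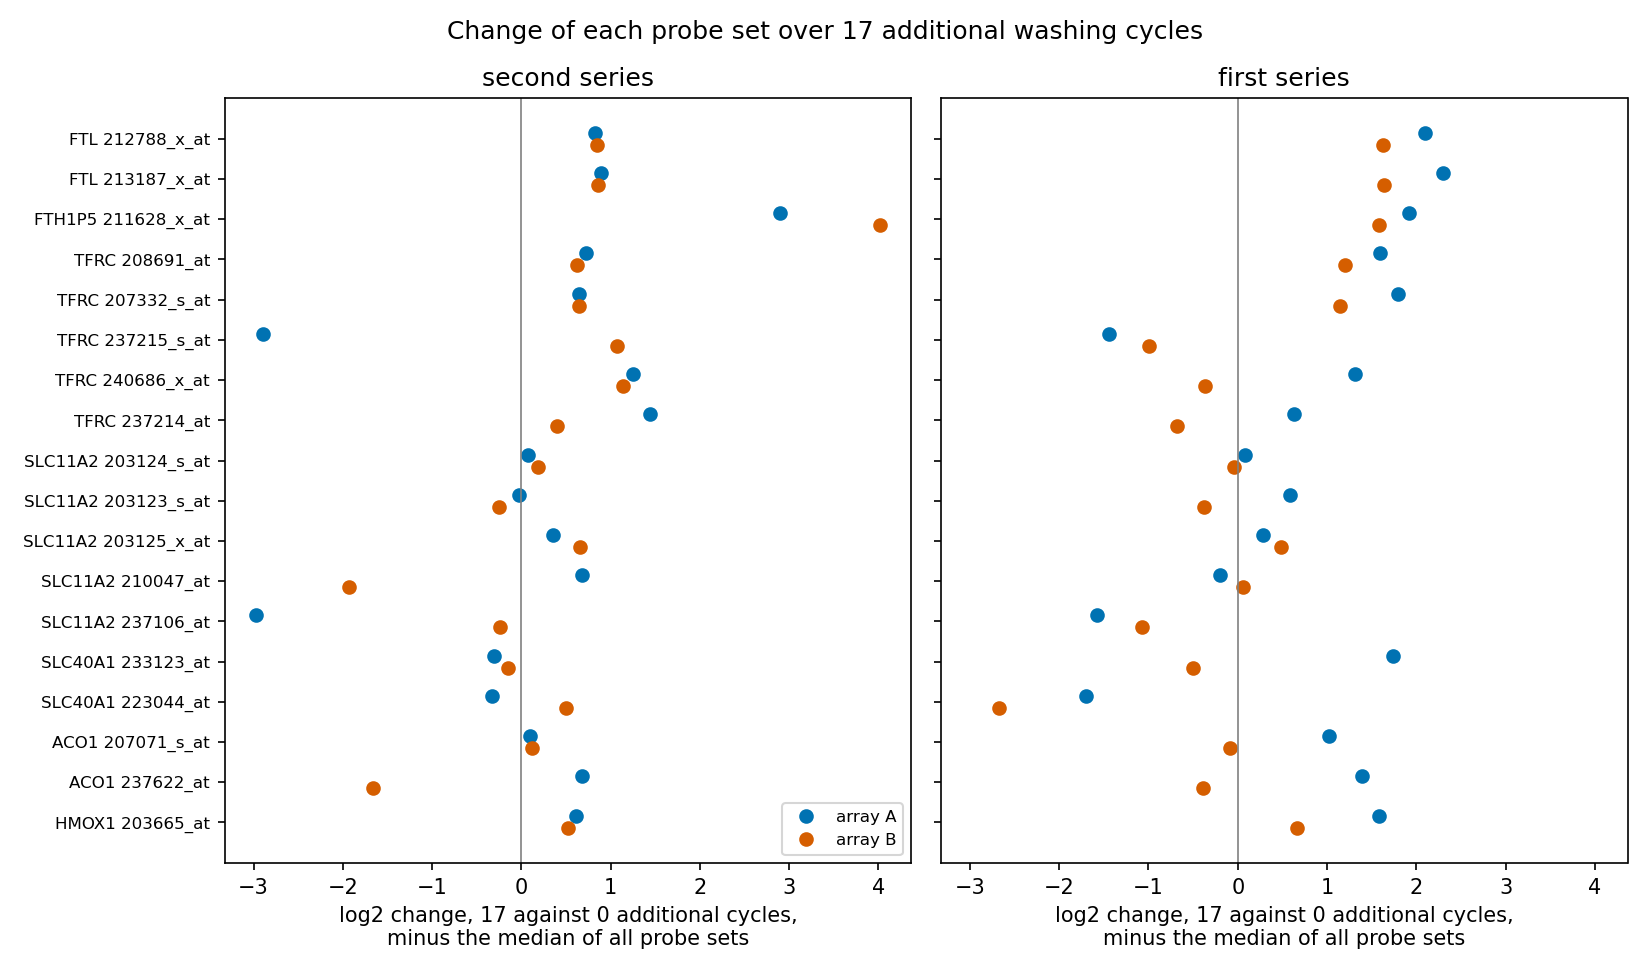
Log2 change of each of the 18 probe sets between 0 and 17 additional cycles, minus that array's median change, in the second series (left) and the first (right), for arrays A and B. FTL, FTH1P5, bright TFRC and HMOX1 probe sets lie right of 0 on both arrays in both series (after quantile normalization the means of FTL 212788_x_at in the second series, FTH1P5 in the first and TFRC 208691_at in both were negative), and SLC40A1 223044_at lies left of 0 on both arrays in the first series alone.

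The washing before the first staining gave a further view, with 1 scan for each number of initial cycles, no replicate and no test. From A1 over B1 to C1 (0, 2 and 6 initial cycles), FTL 212788_x_at read 6782, 12938 and 17635, FTH1P5 11385, 16223 and 20583, and HMOX1 1384, 2944 and 3502. TFRC 208691_at read 4764, 7411 and 7690.0. Relative to the median, C1 exceeded A1 by 2.47 for FTL 212788_x_at, 1.95 for FTH1P5, 1.79 for TFRC 208691_at and 2.44 for HMOX1, against a median of 2.26 over the 100 brightest probe sets. SLC40A1 223044_at was at -3.80 by the same measure, with a low C1 signal of 10.7. Array and initial washing cannot be told apart in these scans.

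Re-labelling was compared as the second over the first series in the 9 pairs of scans, by limma with the pair as a block. The second-series scan of each pair had also had more washing cycles in total and more earlier scans. The second staining cannot be told apart from these. Of all probe sets 161 were higher (0.294% called) and 296 lower (0.541% called), and 0 of the 18 were called in either direction. At an unadjusted p under 0.05, 4558 probe sets were higher and 6172 lower, among them 1 and 2 of the 18. The 9 pairs are repeat scans of 3 hybridizations, 4 pairs each from A and B and 1 from C, so the standard errors and these counts leave out the spread between arrays. With the array as the unit, 0 of all probe sets were called and FTH1P5 was at -1.28. The trended and robust setting called 2 of the 18 and 1834 of all probe sets. All probe sets had a median of -0.02. Relative to it FTH1P5 was at -1.47 ± 0.36 (log2, SE, 9 pairs), with single pairs from -3.41 to -0.08, and it was negative as scaled (-1.50), anchored on the 100 brightest (-1.07) and after quantile normalization (-1.46).

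FTL stood close to the median in this comparison, at 0.00 ± 0.15 for 212788_x_at and -0.02 ± 0.17 for 213187_x_at. The pairs differed by washing step. After 0, 2, 7 and 17 cycles the relative values of 212788_x_at were 1.03, 0.44, 0.11 and -0.21 on array A and 0.22, -0.25, -0.09 and -0.54 on B, and on array C -0.54. TFRC 208691_at had 0.97, 0.59, 0.31 and 0.13 on array A and 0.33, 0.01, 0.09 and -0.23 on B. The 100 brightest probe sets had medians of 0.48, 0.03, -0.33 and -0.59 on array A and -0.08, -0.36, -0.43 and -0.69 on B. SLC40A1 223044_at had the opposite course, with -0.66, -0.11, -0.24 and 0.74 on array A and -0.01, 0.56, 2.03 and 3.18 on B. The value of 3.18 has a first-series signal of 8.93 as its divisor.

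**Figure D5:**
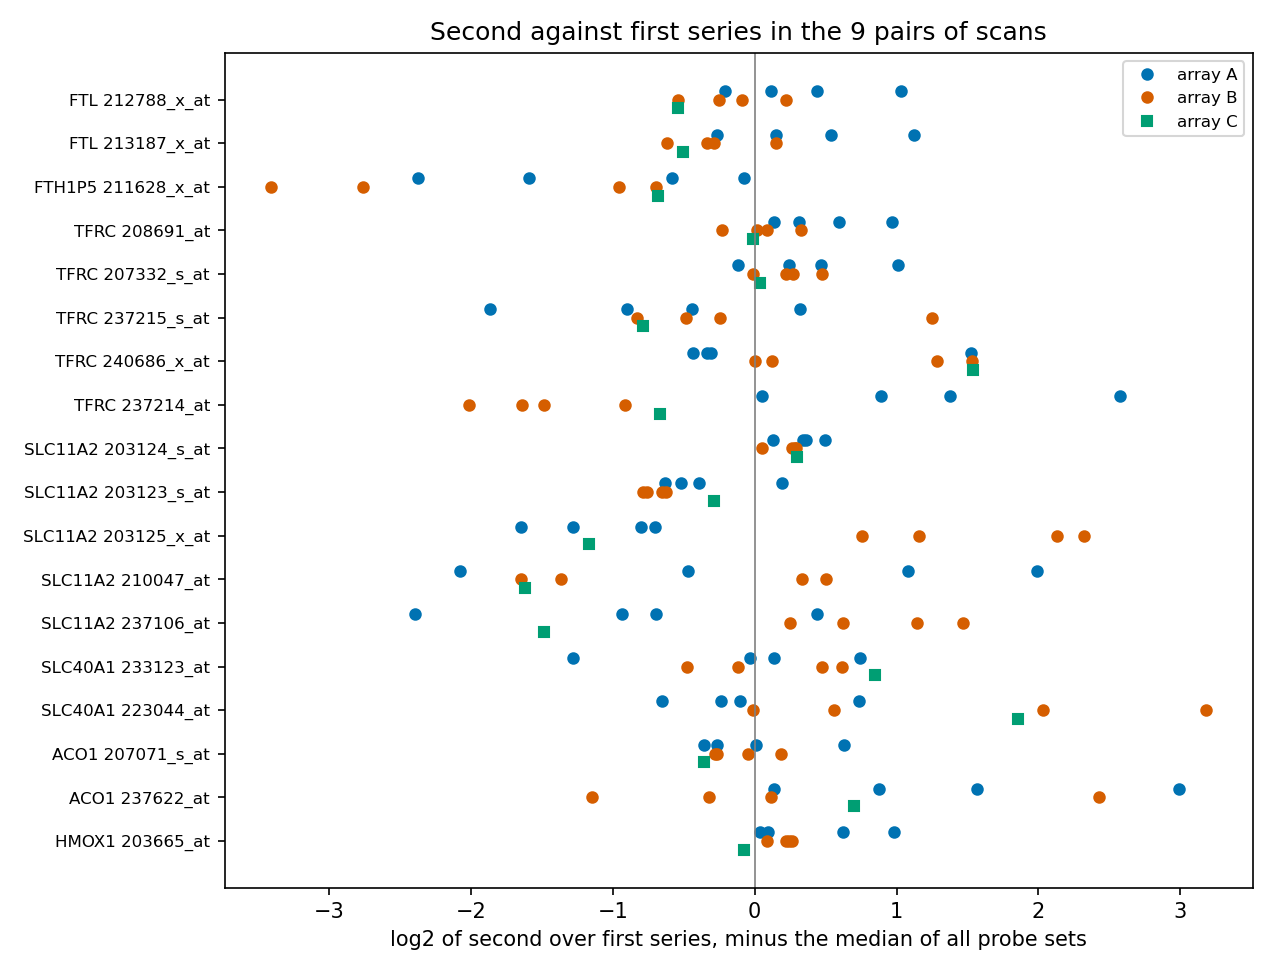
Log2 ratio of second over first series, minus the median of all probe sets, for each of the 9 pairs of scans and the 18 probe sets, coloured by array. FTH1P5 lies left of 0 in 9 of 9 pairs, SLC11A2 203124_s_at right of 0 in 9 of 9, and SLC11A2 203125_x_at and TFRC 237214_at split by array. The pairs come from 3 arrays, and such counts were not made for all probe sets.

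A list of 56 other genes of iron uptake, export, systemic regulation, storage, iron-sulphur clusters and heme had 52 with a probe set, each read by the one brightest on C1. By the same limma tests over all probe sets, 0 of 52 passed for washing in either series, for the difference between the series or for re-labelling. At an unadjusted p under 0.05, 1 was higher and 3 lower for washing in the second series, 4 and 6 in the first, 3 and 3 for the difference between the series, and 2 and 5 for re-labelling. Over all 54675 probe sets the same counts were 1395 and 6358, 1914 and 7573, 2686 and 1408, and 4558 and 6172. The median relative change with washing was 0.16 in the second series and 0.21 in the first, and that of re-labelling 0.07. The genes of storage and sensing had the highest median with washing, 0.56 in the second series and 1.05 in the first over 5 genes. Those of export and oxidation had -0.39 and -0.26 over 5 genes, and those of systemic regulation 0.39 and -0.38 over 7 genes. These groups also differed in signal. On C1 the storage and sensing genes read 8436, 6165, 2133, 1912 and 23.5, and the dimmest of them was at -0.22 and -0.83. The export genes read 35.9 to 566 on C1, and those of systemic regulation 5.85 to 367. Role and signal level were not separated.

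The brightest of the 52 on C1 were NCOA4 (8436), the receptor that delivers ferritin to lysosomes, PCBP2 (6165), an iron chaperone, and SLC39A14 (4488), a membrane transporter of zinc and iron. Relative to the median, NCOA4 had 0.72 ± 0.18 for washing in the second series and 1.58 ± 0.26 in the first, with adjusted p of 0.355 and 0.198 (limma). PCBP2 had 0.64 ± 0.17 and 1.42 ± 0.27 (adjusted p 0.376 and 0.226), and SLC39A14 0.59 ± 0.18 and 1.16 ± 0.28 (adjusted p 0.421 and 0.299). For re-labelling the 3 genes had 0.08, 0.07 and 0.29, with adjusted p of 0.834, 0.873 and 0.282.

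Among probe sets with exactly 1 symbol, the genes whose log2 signals over the 18 scans were most like those of FTH1P5 were ACTB (r 0.89), RPS18 (0.85), S100A6 (0.84), ATP6 (0.81) and UBB (0.81). Those most like TFRC 208691_at were ATP5PB (0.99), HSPA5 (0.99), TOP2A (0.98), JTB (0.98) and DEK (0.98). Between members, FTH1P5 and FTL 212788_x_at had an r of 0.50 in the second series and 0.97 in the first, while FTL 212788_x_at and TFRC 208691_at had 0.98 in both. All scans share 1 RNA and each was rescaled as a whole, so these values describe the scans and carry no test.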

How the data were processed

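RNA of untreated FTC-133 cells was hybridized to 3 Affymetrix HG-U133 Plus 2.0 arrays, which gave 18 scans. The authors deposited one table of MAS5 signals per probe set and scan, scaled by scan; the MAS5 version is not given in the sources used here. Signals were taken as log2 with no offset and no filter on low signals. Symbols came from the platform annotation used here: 41097 probe sets had 1 symbol, 1801 several and 11777 none listed. Scans were grouped by array, series and additional cycles. limma 3.58.1 (R 4.3.3) was fitted to all 54675 probe sets, with the array (washing) or the pair of scans (re-labelling) as a block and Benjamini-Hochberg adjustment, and called at 0.05. The scripts were tested on simulated data. Descriptions used Python 3.11.15, numpy 2.4.6, pandas 2.3.3 and matplotlib 3.10.9. The number of arrays limits the precision.

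The members and lists were chosen with earlier results of these data known. Every probe set with a listed member symbol was described. Of the other iron genes, those passing a test and the 3 brightest on C1 were to be named, and the 5 genes most like the brightest FTH1 and TFRC probe sets over the 18 scans. FTH1 had no listed probe set, so FTH1P5 took its place in that last step, a choice made after the table was seen. Blocks follow the arrays: scans with the same letter came from the same hybridization. Alternatives were median centring, quantile normalization, anchoring on the 100 probe sets brightest on C1, an offset of 16, the brighter part of the probe sets (27337), limma's trended and robust moderation, no block, arrays or scans left out, the array as the unit and gene means.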

Additional observations from a re-analysis of the deposited data

How the results depend on the processing

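The counts of called probe sets among the 18 were 0 in each comparison. For washing in the first series they became 7 when anchored on the 100 brightest probe sets, 4 in the brighter part of the probe sets and 6 with limma's trended and robust moderation, and those of the 52 other iron genes became 33, 1 and 9. Those fits called 29877, 705 (of 27337) and 2615 of all probe sets. For washing in the second series they became 5 (anchored) and 4 (trended), with 23 and 3 iron genes and 23406 and 1546 of all. The difference between series gave 3 (trended, 778 of all). Re-labelling gave 5 (anchored, with 14 iron genes and 11521 of all), 1 (offset of 16, 967 of all), 1 (brighter part, 245 of 27337) and 2 (trended, 1834 of all), and 1 iron gene when each gene's probe sets were averaged. Without the array or pair as a block 0 of the 18 were called in each comparison, and leaving out single scans or arrays also left 0.

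Single relative changes turned sign as follows, and the cause was not tested. With quantile normalization, washing in the second series gave -0.014 for FTL 212788_x_at, -0.16 for TFRC 208691_at, -0.041 for ACO1 207071_s_at and -0.025 for SLC11A2 203124_s_at. Washing in the first series gave -0.056 for FTH1P5, -0.20 for TFRC 208691_at and -0.26 for SLC11A2 203124_s_at, and the difference between series 0.054 for TFRC 208691_at. In the first series SLC11A2 203124_s_at was at -0.072 with an offset of 16 and at -0.21 in the brighter part, where 203123_s_at was at -0.12. SLC40A1 223044_at in the second series was at -0.022 in the brighter part, and leaving out 1 scan after 0 or 17 cycles gave -0.25 (without B5) to 0.43 (without A5). Leaving out 1 of the scans after 0 or 17 cycles in the first series gave -0.046 (without A1) to 1.04 (without B1) for ACO1 207071_s_at, -0.36 to 0.62 for SLC11A2 203123_s_at and -0.11 to 0.19 for 203124_s_at. For re-labelling, FTL 212788_x_at was at -0.026 in the brighter part, -0.13 with the array as the unit and -0.089 without the scans before additional washing, and 213187_x_at at 0.20 on those scans alone. These last alternatives on scans were chosen after seeing the data. Leaving out an array gave -0.25 (without A) to 0.13 (without B) for 212788_x_at and -0.32 to 0.18 for 213187_x_at.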
